A study of Mus musculus with 25 samples.

Results

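Lipogenic and adipogenic transcription factors were followed in perigonadal white adipose tissue (pgWAT) of mice without the glucose-sensing factor ChREBP. The set was a fixed list, chosen with earlier results of these data known. Its 10 genes were Srebf1, Nr1h2, Nr1h3, Pparg, Ppara, Cebpa, Cebpb, Rxra, Klf15 and Usf1, found by each probe's gene name in the array files. They were 10 of 18934 genes measured by symbol, and 17 of 56605 distinct gene probes. Of those 17 probes, 16 were in the deposited table of 40561 probes and were well above background on all 25 arrays. The missing probe, one of 3 for Nr1h2, had a median signal of 19 to 38 and was well above background on 2 of 25 arrays. No member spot was saturated. Each array held RNA of pgWAT from 1 male C57BL6/J mouse, fasted for 24 h and refed for 18 h with food and water containing 20% glucose. ChREBPβ KO mice (6 arrays) lacked the ChREBPβ-specific exon of Mlxipl in all tissues after CRISPR/Cas9 editing of embryos, and total ChREBP KO mice (5 arrays) were Mlxipl-null and lacked both ChREBPα and ChREBPβ. Each line had its own wild-type littermates, ChREBPβ WT (7 arrays) and total ChREBP WT (7 arrays), and all groups shared the diet, the fast and the refeeding. Ages were not given in the sources used here. Both deletions were present in every cell of the mouse, so an effect within fat cells and one from the rest of the body cannot be told apart.

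The factors form a network that sets fat cell identity and lipid synthesis. Pparg and Cebpa, induced after Cebpb, drive and maintain the differentiated fat cell, and Rxra is the partner with which the PPAR and LXR receptors bind DNA. SREBP-1, made by Srebf1, activates genes of fatty acid synthesis, and its insulin-responsive form is itself transcribed under LXR. The LXR genes Nr1h3 and Nr1h2 encode sterol receptors, Ppara encodes a receptor that activates fatty acid oxidation, Klf15 encodes a zinc finger factor of glucose, amino acid and lipid metabolism, and USF1 binds the same E-box sequence that ChREBP and its partner MLX read as a pair. ChREBP itself shares many lipogenic target genes with SREBP-1.

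Level here means the deposited log2 value of a gene's main probe, the brightest of its probes in the table. Because probes differ in brightness for reasons other than RNA, levels were compared between groups and not between genes. A gene was called when its limma p-value, adjusted by Benjamini-Hochberg over all 40561 probes in a model of all 25 arrays with wash batch, was under 0.05. In bulk tissue fewer cells of a type and less RNA per cell cannot be told apart. Median raw signal ranged from 84 to 127 per array. Mlxipl, the targeted gene, was at 15.74 to 16.24 in total ChREBP WT and 14.07 to 14.29 in total ChREBP KO, so that it fell by 1.77 on the log2 scale (SE 0.14, adjusted p = 1.11e-08, limma). In the ChREBPβ line it was at 14.72 to 15.46 in WT and 14.02 to 14.64 in KO, a difference of -0.74 (SE 0.13, adjusted p = 0.116) with no overlap between the groups. Whether the probe reads the deleted exon was not analysed here, so it checks the label of the total ChREBP line more directly than that of the ChREBPβ line. All 8 fat cell markers (Adipoq, Plin1 and others) were in the table, with a mean log2 level of 14.85 to 15.50 on each array. Markers of other tissues were present too. The mean of 9 liver markers (Alb, Apoa1, Fga and others) was 12.10 to 15.94 in ChREBPβ WT, 10.63 to 15.32 in ChREBPβ KO, 7.22 to 13.07 in total ChREBP WT and 6.74 to 7.91 in total ChREBP KO, where Fga was well above background on 0 of 5 arrays. Epididymis and vas deferens markers, of which 2 of 7 were in the table, had a mean above 10 on 5 arrays spread over the 4 groups, the highest being total ChREBP WT replicate 2 at 16.25. Kidney markers, 6 of 8 in the table, had a mean above 9 on 4 arrays, all of the ChREBPβ line. Calls that changed without such arrays are given with the member, a choice made after seeing the data.

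The promoters are shown for the 3 members called without overlap in the total ChREBP comparison, since 2 of them carry sequences that the factors of this network bind. RefSeq (GRCm38.p6) gave 17 start sites for the 10 members, and the 250 bases before each start were searched on both strands for 7 motifs. These were the E-box CACGTG, the CCAAT box CCAAT, the GC box GGGCGG, the sterol element TCACNCCAC, the receptor half-site AGGTCA, the LXR element of the mouse Srebf1 promoter (GGGTTA and CGGTCA set 4 bases apart) and the carbohydrate response element, the double E-box of ChREBP. Matches are in capitals, and none of those printed overlap.

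Srebf1, start 3, chr11:60210472-60210721, minus strand: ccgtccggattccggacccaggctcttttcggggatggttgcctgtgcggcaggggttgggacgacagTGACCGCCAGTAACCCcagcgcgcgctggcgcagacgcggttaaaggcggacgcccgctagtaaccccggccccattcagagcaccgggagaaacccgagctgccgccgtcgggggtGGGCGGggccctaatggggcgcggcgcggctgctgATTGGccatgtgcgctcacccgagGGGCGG
Klf15, chr6:90462326-90462575, plus strand: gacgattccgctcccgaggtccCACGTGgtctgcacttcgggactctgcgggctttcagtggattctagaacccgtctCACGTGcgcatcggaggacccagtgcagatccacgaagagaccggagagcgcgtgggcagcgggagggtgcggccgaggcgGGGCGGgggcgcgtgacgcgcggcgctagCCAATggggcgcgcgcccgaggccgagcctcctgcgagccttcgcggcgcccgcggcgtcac
Nr1h3, start 1, chr2:91195117-91195366, minus strand: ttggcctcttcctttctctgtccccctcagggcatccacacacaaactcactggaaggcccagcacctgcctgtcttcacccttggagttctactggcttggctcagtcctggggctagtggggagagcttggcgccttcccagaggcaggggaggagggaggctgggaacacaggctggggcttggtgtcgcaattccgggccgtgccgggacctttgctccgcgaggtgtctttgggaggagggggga

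The Srebf1 sequence held the LXR element, 182 bases before the start, together with 1 CCAAT box and 2 GC boxes. Starts 1 and 2 of Srebf1, not printed, held no LXR element. Which start gave the RNA that the Srebf1 probe reads was not analysed. The same LXR element letters were present in 3 of 32851 promoters (0.00913%). The letters searched for are those of the Srebf1 promoter itself, so this match was given in advance and its rarity is no evidence. The Klf15 sequence held 2 E-boxes, 228 and 172 bases before the start, and was the only one of the 17 member promoters with an E-box, which 6.02% of all promoters held. No match was present in the Nr1h3 sequence. The CCAAT box was present in 5 and the GC box in 10 of the 17 member promoters, against 33.8% and 32.7% of all promoters. The receptor half-site was in 3 of 17 (14% of all), and neither the sterol element (1.05% of all) nor the carbohydrate response element (0.0974% of all) was in these windows.

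**Figure D1:**
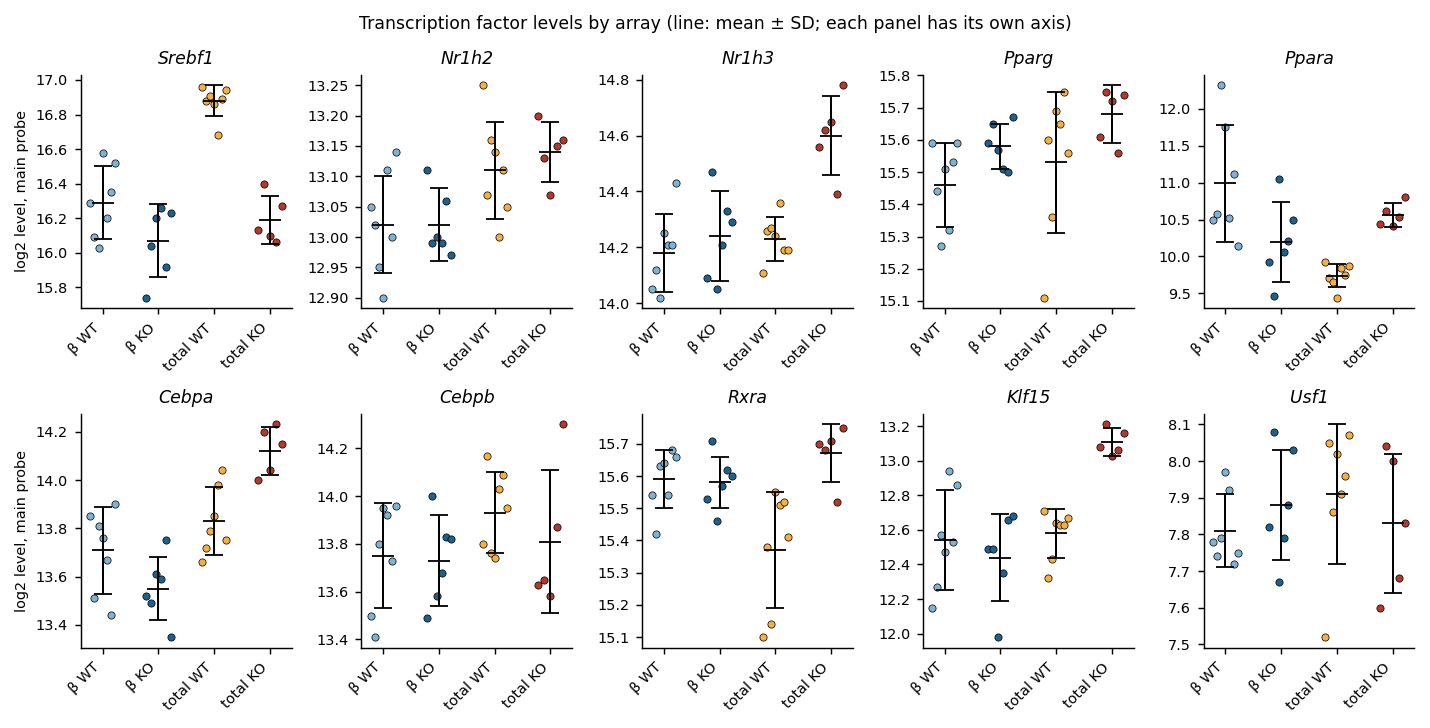
Deposited log2 level of the main probe of each factor (vertical axis, own scale per panel) on each of the 25 arrays by group, with the group mean ± SD as a bar. The 5 total ChREBP KO arrays lie below all total ChREBP WT arrays for Srebf1 and above all of them for Nr1h3, Ppara and Klf15.

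The comparison of total ChREBP KO with its WT littermates asked which factors differ when both isoforms are absent. The gene for the lipogenic factor SREBP-1 was lower, and the genes for LXRα, RXRα, C/EBPα and KLF15 were higher. In all, 5 of 10 members were called, against 9.72% of the 18934 genes. Of these, 4 rose (6.06% of all genes were called higher) and 1 fell (3.65% were called lower). The groups did not overlap for 4 members, against 8.23% of all genes. The median difference was 0.22 over the 10 members and 0.01 over all genes. The members were chosen with earlier results of these data known, so these shares and the median are no independent evidence.

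Srebf1 had levels of 16.06, 16.10, 16.13, 16.27 and 16.40 in the 5 total ChREBP KO arrays, and a lowest, median and highest of 16.68, 16.89 and 16.96 in the 7 WT arrays. Every KO array lay below every WT array. The fitted difference was -0.67 (SE 0.10, adjusted p = 0.000129, limma), a 1.59-fold lower level. It was -0.82 to -0.51 within each of the 4 wash batches. Srebf1 stayed called under all settings tried.

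Nr1h3, which encodes LXRα, the LXR form abundant in fat, liver and macrophages, went the other way. Its levels were 14.39, 14.56, 14.62, 14.65 and 14.78 in total ChREBP KO, against 14.11, 14.24 and 14.36 (lowest, median and highest) in WT. The difference was 0.38 (SE 0.08, adjusted p = 0.00232, limma), a 1.30-fold higher level, and 0.25 to 0.51 within wash batches. The second Nr1h3 probe (91024435 to 91024494 on chromosome 2) gave 0.36 (adjusted p = 0.00205). Without the 5 arrays high in epididymis markers the Nr1h3 difference was 0.27 and the call was lost (adjusted p = 0.086). Nr1h2, which encodes the more widely expressed LXRβ, had 13.07 to 13.20 in KO and 13.00 to 13.25 in WT, and its difference of 0.04 (95% interval -0.07 to 0.14) did not pass the test (adjusted p = 0.773).

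Klf15 had levels of 13.03, 13.06, 13.08, 13.16 and 13.21 in total ChREBP KO. In WT its lowest, median and highest were 12.32, 12.63 and 12.71, and every KO array lay above every WT array. The rise was 0.56 (SE 0.10, adjusted p = 0.000986, limma), a 1.47-fold higher level, with 0.39 to 0.71 within wash batches. Like Srebf1, Klf15 was called under all settings tried.

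Among the receptors of the PPAR branch, Pparg, which encodes the master factor of fat cells, had 15.56 to 15.75 in total ChREBP KO and 15.11 to 15.75 in WT, and the difference of 0.15 (95% interval -0.03 to 0.32) did not pass the test (adjusted p = 0.372). Ppara had levels of 10.41, 10.44, 10.54, 10.61 and 10.80 in KO and 9.44, 9.75 and 9.92 (lowest, median and highest) in WT. The Ppara groups did not overlap, yet the main probe was not called, with a difference of 0.79 (SE 0.27, adjusted p = 0.077, limma). The model shares 1 spread per probe over the 4 groups, and Ppara varied far more in the ChREBPβ line, with an SD of 0.79 in ChREBPβ WT against 0.16 in both total ChREBP groups. Of 17 other settings 4 called it: only the 2 groups of this comparison in the fit (0.85, adjusted p = 0.000249), marker covariates (1.20, adjusted p = 0.00487), no arrays high in kidney markers (0.83, adjusted p = 0.0177) and array weights (0.77, adjusted p = 0.032). Over all 17 the adjusted p reached 0.158. Of 25 fits that left out 1 array, 1 called it, that without ChREBPβ WT replicate 3, the highest Ppara array (0.81, adjusted p = 0.0285), and the adjusted p of the others reached 0.205. The second Ppara probe (85637193 to 85637252 on chromosome 15) gave 0.84 and was called (adjusted p = 0.0485).

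Rxra, the shared partner of these receptors, had 15.52, 15.68, 15.70, 15.71 and 15.75 in total ChREBP KO and 15.10, 15.41 and 15.55 (lowest, median and highest) in WT. The groups overlapped through KO replicate 4 alone, at 15.52. The difference was 0.31 (SE 0.08, adjusted p = 0.0115, limma), but the second, dimmer Rxra probe gave 0.16 and was not called (adjusted p = 0.445). The Rxra call was lost in 6 of the other fits, with differences of 0.21 to 0.31 and adjusted p from 0.0516 to 0.172. They include those without the arrays high in epididymis markers (0.26, adjusted p = 0.111) and without the 3 total ChREBP WT arrays high in liver markers (0.27, adjusted p = 0.0646).

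Of the C/EBP factors, Cebpa was at 14.00, 14.04, 14.15, 14.20 and 14.23 in total ChREBP KO and at 13.66, 13.79 and 14.04 in WT (lowest, median and highest). Of the 5 KO arrays, 4 lay above every WT array, 1 of them (14.04) by less than the rounding, and replicate 1 lay within the WT range. Its difference of 0.30 (SE 0.08, adjusted p = 0.025, limma) had the highest adjusted p of the 5 calls. Leaving out total ChREBP WT replicate 4 or total ChREBP KO replicate 2, 3 or 4 ended it, with adjusted p from 0.0576 to 0.0643, and so did leaving out the arrays high in epididymis markers (adjusted p = 0.228) or the 3 total ChREBP WT arrays high in liver markers (adjusted p = 0.0999). Cebpb, an early factor of fat cell differentiation, had 13.58 to 14.30 in KO and 13.74 to 14.17 in WT, with a difference of -0.11 (95% interval -0.38 to 0.16, adjusted p = 0.741). Usf1 had 7.60 to 8.04 in KO and 7.52 to 8.07 in WT, with a difference of -0.09 (95% interval -0.29 to 0.11, adjusted p = 0.683).

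Other cell markers moved beside these results, where 6.06% of all genes were called higher and 3.65% lower. The mean of the 8 fat cell markers was 15.30 to 15.38 in total ChREBP KO and 14.85 to 15.27 in WT, with 3 of 8 called higher (Plin1, Cidec and Plin4). The mean of the 10 macrophage markers was 12.41 to 12.79 in KO and 12.52 to 13.07 in WT, with 0 of 10 called. The mean of 5 fat progenitor markers did not overlap, at 11.95 to 12.24 in KO and 12.25 to 12.45 in WT, with 1 of 5 called lower (Ly6a). The mean of 6 brown fat markers was 9.13 to 10.33 in KO and 9.03 to 10.40 in WT, with 1 of 6 called higher (Dio2). The liver marker mean was lower in KO, as given above, with 2 of 9 called. Their part in the member results was not tested beyond the fit with liver, kidney and epididymis marker means as covariates. In that fit Srebf1, Nr1h3, Ppara and Klf15 were called, while Cebpa (0.22, adjusted p = 0.233) and Rxra (0.21, adjusted p = 0.172) were not.

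**Figure D2:**
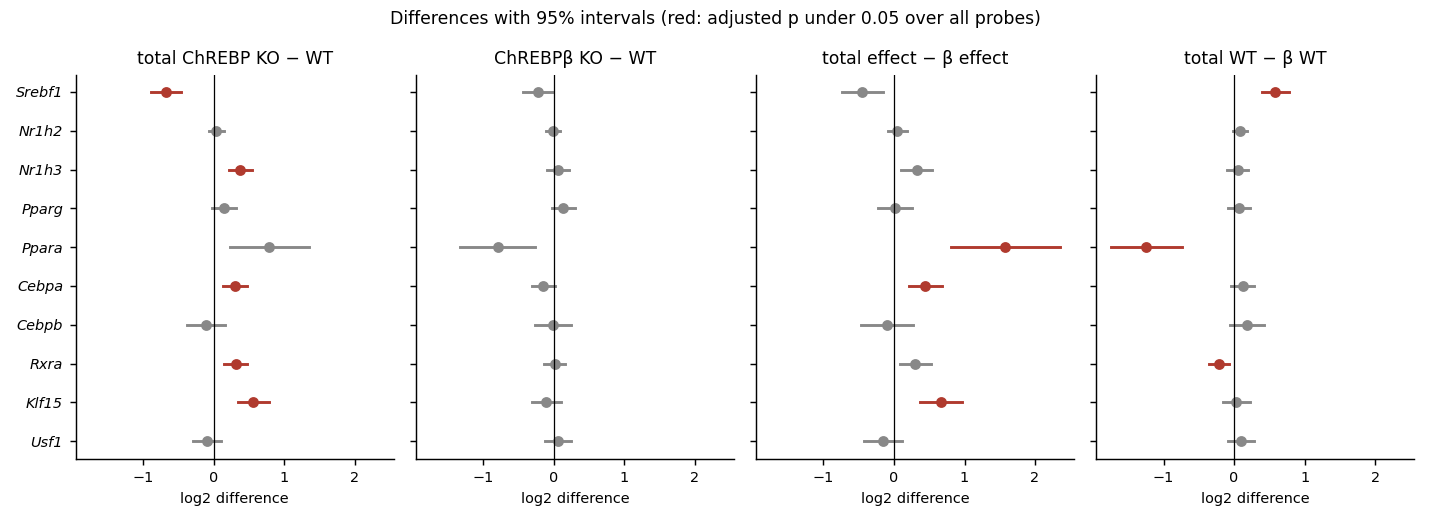
Log2 differences of the 10 factors (points, main probe) with 95% intervals (lines) in the 4 comparisons, red where the adjusted p over all probes is under 0.05. In the total ChREBP comparison 5 intervals are red, in the ChREBPβ comparison 0.

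The comparison of ChREBPβ KO with ChREBPβ WT asked which factors differ when the β isoform alone is absent. No member was called, 0 of 10, and none of the 18934 genes measured by symbol was either (0% by their main probes, limma). Before adjustment, with p under 0.05, there were 2 of 10 members, Srebf1 and Ppara, against 11.1% of all genes. No member separated the groups without overlap, against 0.0951% of all genes. Every other fit tried also called 0 of 10.

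Srebf1 was at 15.74, 16.12 and 16.26 (lowest, median and highest) in ChREBPβ KO and at 16.03, 16.29 and 16.58 in ChREBPβ WT. The difference was -0.23 (95% interval -0.43 to -0.02, adjusted p = 0.503, limma), and it was below 0 in all 4 wash batches. Ppara was at 9.46, 10.13 and 11.05 in KO and at 10.14, 10.57 and 12.32 in WT, with a difference of -0.79 (95% interval -1.33 to -0.26, adjusted p = 0.38, limma). That of wash batch 4 was 0.02, while the other wash batches gave -1.55, -1.11 and -0.75. The liver marker mean was also lower in KO, as given above, though with 0 of 9 called. With liver, kidney and epididymis marker means as covariates the Ppara difference was -0.40 (adjusted p = 0.801), and over all 17 other settings it was -0.89 to -0.40. For the remaining 8 members the differences lay between -0.15 (Cebpa) and 0.13 (Pparg). The 95% intervals limit them: Nr1h3 lay within -0.09 and 0.21, Klf15 within -0.31 and 0.10, and Pparg within -0.03 and 0.30. A second, dimmer Rxra probe gave -0.25 (adjusted p = 0.473) where the main probe gave 0.01.

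Whether the effects of the 2 deletions differ was tested directly, as the total ChREBP difference minus the ChREBPβ difference. Each deletion was in its own mouse line, so deletion and line cannot be told apart in this test. The members called were 3 of 10, Ppara, Cebpa and Klf15, against 3.55% of all genes. Klf15 differed by 0.67 (SE 0.14, adjusted p = 0.00771, limma), the effects being 0.56 for the total deletion and -0.11 for the β deletion. It was 0.49 to 0.88 in the wash batches. Ppara differed by 1.58 (SE 0.37, adjusted p = 0.017), from effects of 0.79 and -0.79 in the same order, and by 0.52 to 2.57 in the wash batches. The Ppara call was lost without the arrays high in epididymis markers (1.62, adjusted p = 0.0571) and with the replicate number as a block (1.57, adjusted p = 0.101). Cebpa differed by 0.44 (SE 0.11, adjusted p = 0.031), from effects of 0.30 and -0.15. It lost the call when any of 9 single arrays was left out (adjusted p 0.053 to 0.0654). So it did without the arrays high in epididymis markers (0.36, adjusted p = 0.289) and without the total ChREBP WT arrays high in liver markers (0.44, adjusted p = 0.0754). The processed signal (0.42, adjusted p = 0.0591), the replicate block (0.47, adjusted p = 0.147) and the marker covariates (0.42, adjusted p = 0.0809) also ended it. Srebf1 fell in the total ChREBP line, but the difference of the effects, -0.45 (95% interval -0.74 to -0.15), was not called (adjusted p = 0.106). It was called with the median signal rebuilt from the array files (-0.51, adjusted p = 0.0431). It was also called without ChREBPβ KO replicate 2 (-0.52, adjusted p = 0.036) and without ChREBPβ WT replicate 4 (-0.50, adjusted p = 0.0497). Nr1h3 differed by 0.32 by its main probe (adjusted p = 0.127) and by 0.36 by its second probe (adjusted p = 0.0495).

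The wild types of the 2 lines also differed from each other, and line, litter and housing cannot be told apart in that comparison. Of the members 3 of 10 were called, against 22.6% of all genes. Srebf1 was the member called higher in total ChREBP WT (13.4% of all genes were), and Ppara and Rxra were called lower (9.16% of all genes were). The groups did not overlap for 2 members, Srebf1 and Ppara, against 5.74% of all genes. Srebf1 differed by 0.58 (SE 0.09, adjusted p = 0.00021, limma), with 16.68 to 16.96 in total ChREBP WT and 16.03 to 16.58 in ChREBPβ WT. The Srebf1 level of total ChREBP KO, 16.06 to 16.40, thus lay within the range of ChREBPβ WT. Rxra differed by -0.21 (adjusted p = 0.0289), but the second probe gave 0.17 (adjusted p = 0.239), and leaving out any of 6 single arrays ended the call. So did leaving out the arrays high in epididymis (adjusted p = 0.117), kidney (adjusted p = 0.128) or liver markers (adjusted p = 0.131).

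Ppara was 9.44 to 9.92 in total ChREBP WT and 10.14 to 12.32 in ChREBPβ WT, a difference of -1.25 (SE 0.24, adjusted p = 0.00105, limma). The 7 ChREBPβ WT levels were 10.14, 10.50, 10.52, 10.57, 11.12, 11.75 and 12.32. The high pair, replicates 4 and 3, were both from wash batch 1, and the difference was -2.49 in that wash batch and -0.43, -0.86 and -1.01 in the others. Their liver marker means were 15.36 and 15.94, and replicate 3 also had the highest kidney marker mean of all arrays, 11.53. Other arrays with like marker means varied in Ppara level. It was 10.52 in ChREBPβ WT replicate 6 (liver 15.26), 10.49 in ChREBPβ KO replicate 8 (liver 15.32) and 10.50 in ChREBPβ WT replicate 1 (kidney 11.41). In ChREBPβ WT replicate 7 (liver 15.54, kidney 10.04) it was 11.12, and in ChREBPβ KO replicate 4 (liver 15.14, kidney 9.2) it was 11.05. After each group's mean was taken off, Ppara correlated with the liver marker mean over the 25 arrays at Pearson r 0.60. The r was 0.43 for kidney and -0.01 for epididymis markers. It was -0.62 for the fat cell markers and -0.56 for endothelial markers, so liver markers did not stand alone. Liver markers differed between the wild types as well, with 9 of 9 called lower in total ChREBP WT. With liver, kidney and epididymis marker means as covariates the Ppara difference between wild types was -0.19 (adjusted p = 0.779). In total ChREBP KO the liver marker means were 6.74 to 7.91 and Ppara was 10.41 to 10.80. The part of these tissues in the Ppara levels was not tested further.

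**Figure D3:**
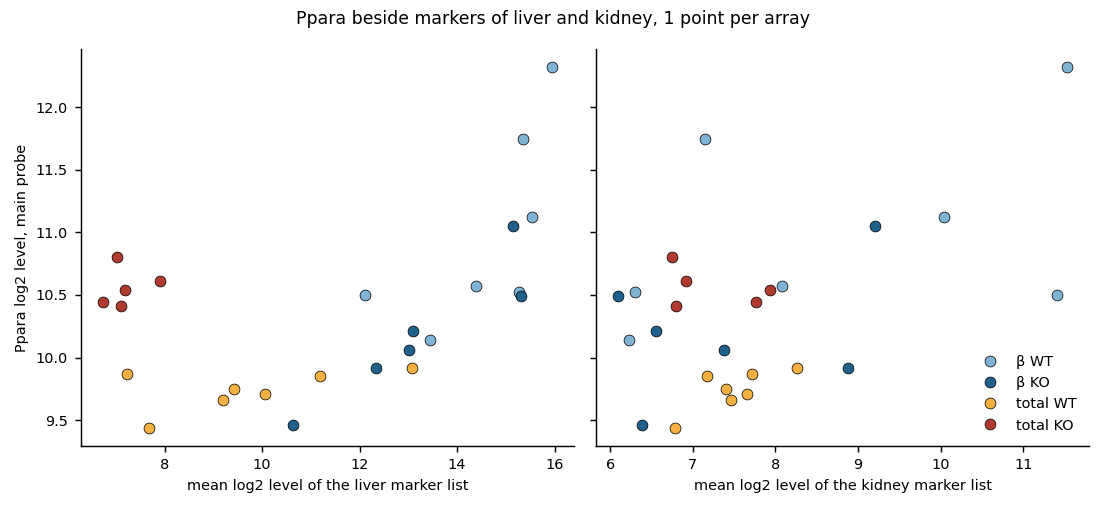
Ppara log2 level (vertical axis, main probe) on each of the 25 arrays against the mean log2 level of 9 liver markers (left) and 6 kidney markers (right), coloured by group. ChREBPβ WT arrays reach 12.32 at high liver marker levels, while the 5 total ChREBP KO arrays lie at 10.41 to 10.80 with liver marker means of 6.74 to 7.91.

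A pair of dim probes also differed between the wild types where their main probes did not. The second Pparg probe (chromosome 6, 115413557 to 115413616, mm9), upstream of the main one (115440213 to 115440272), was at 7.26 to 7.88 in total ChREBP WT and 6.68 to 7.44 in ChREBPβ WT, a difference of 0.60 (SE 0.09, adjusted p = 0.000151, limma). The main Pparg probe gave 0.07 (adjusted p = 0.565). The second Nr1h2 probe gave 0.28 (adjusted p = 0.00914), and the main one 0.09 (adjusted p = 0.189). Which transcripts such probes read was not analysed here. A second Usf1 probe differed in sign from the main one in the ChREBPβ comparison and in the difference of the effects, with neither called. The main probe of Srebf1 lies on chromosome 11 at 60013214 to 60013273, that of Klf15 on chromosome 6 at 90424982 to 90425040, that of Nr1h3 on chromosome 2 at 91024250 to 91024309 and that of Ppara on chromosome 15 at 85632110 to 85632169, all on mm9. Exon and transcript region were not assigned.

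**Figure D4:**
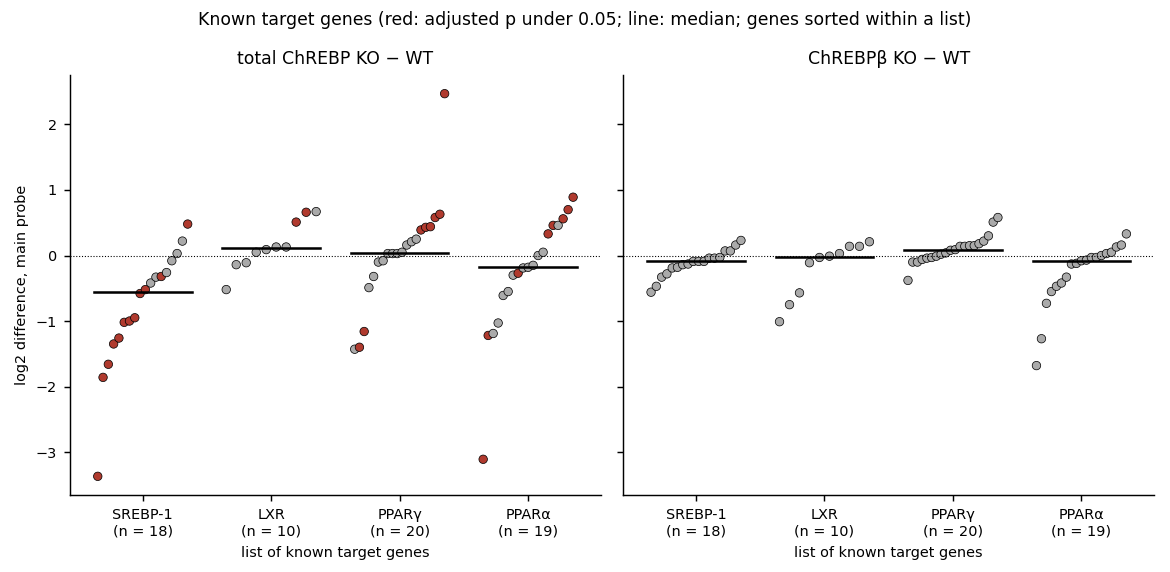
Log2 differences (vertical axis, main probe) of genes known as targets of SREBP-1, LXR, PPARγ and PPARα, sorted within each list, in the total ChREBP comparison (left) and the ChREBPβ comparison (right), with the median as a line and called genes in red. On the left 11 of 18 SREBP-1 targets are called lower (3.65% of all genes are), on the right 0 genes of any list are called.

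The known targets of the factors were counted from lists written with earlier results of these data known. Their direction and the shares called are therefore no independent evidence. Of 18 SREBP-1 targets, 11 fell and 1 rose in total ChREBP KO (66.7% called, against 9.72% of all genes). Their median difference was -0.55. The largest falls were those of Elovl6, which elongates fatty acids (-3.37, adjusted p = 8.9e-11), Acaca, the cytosolic acetyl-CoA carboxylase (-1.86, adjusted p = 2.75e-11), Acly, the ATP citrate lyase (-1.66, adjusted p = 3.58e-10), and Slc25a1, the mitochondrial citrate carrier (-1.35, adjusted p = 3.47e-06). Scd2, a desaturase, rose by 0.48 (adjusted p = 0.0496). Several of these genes are known as direct ChREBP targets too, so the list does not separate the factors. Between the wild types, 12 of the 18 targets were called higher in total ChREBP WT, against 13.4% of all genes. There 0 of the targets were called lower, and their median difference was 0.56. In the direct test, the effects of the 2 deletions differed for 9 of the 18, against 3.55% of all genes. All 9 were more negative for the total deletion.

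Of 10 LXR targets, 2 rose and 0 fell in total ChREBP KO (20% called, against 9.72% of all genes), with a median of 0.11. Those that rose were the sterol exporter gene Abcg1 (0.66, adjusted p = 0.00111) and the phospholipid-remodelling gene Lpcat3 (0.51, adjusted p = 0.00877). Of 20 PPARγ targets, 6 rose and 2 fell (40% called), with a median of 0.04. Pck1, which serves glycerol synthesis in fat, rose by 2.47 (adjusted p = 1.38e-05), as did, by less, Acsl1 (0.63, adjusted p = 0.00216) and the lipoprotein lipase gene Lpl (0.58, adjusted p = 3.96e-06). The glucose transporter gene Slc2a4 (-1.40, adjusted p = 1.32e-07) and Gpd1 (-1.16, adjusted p = 1.29e-08) fell. Of 19 PPARα targets, 5 rose and 3 fell (42.1% called), with a median of -0.18. The fatty acid oxidation genes Cpt1a (0.89, adjusted p = 0.000767) and Cpt2 (0.46, adjusted p = 0.000118) and the kinase gene Pdk4 (0.70, adjusted p = 0.000535) rose. The hormone gene Fgf21 (-3.11, adjusted p = 5.61e-06), the lipid droplet gene Plin2 (-1.22, adjusted p = 1.54e-07) and Hadha (-0.27, adjusted p = 0.0319) fell.

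Of 27 other factors of fat cell differentiation, 4 were called higher and 1 lower in total ChREBP KO, with a median of 0.04. That was 18.5% called, against 9.72% of all genes, in a list also written with earlier results known. Foxo1, a factor restrained by insulin (0.59, adjusted p = 0.000237), the preadipocyte factor Zfp423 (0.53, adjusted p = 0.00478), Stat5a (0.34, adjusted p = 0.0401) and Klf3 (0.29, adjusted p = 0.027) rose. Mlx, the obligate partner of ChREBP, fell by 0.57 on the log2 scale (adjusted p = 0.0135). Of 15 coregulators, 26.7% were called, against 9.72% of all genes. Tle3 (0.52, adjusted p = 0.00521) and Ncoa2 (0.29, adjusted p = 0.0164) rose. Ppargc1b, a coactivator of SREBP-1 and nuclear receptors (-0.63, adjusted p = 0.00565), and Lpin1 (-0.35, adjusted p = 0.00365) fell. Of 6 genes that process or degrade SREBP, 1 was called higher and 0 lower (16.7% called). It was Insig1, which retains SREBP in the endoplasmic reticulum (0.98, adjusted p = 0.000432). Insig1 thus rose while Srebf1 fell. In the ChREBPβ comparison 0 genes were called in each of these lists.

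Genes whose level over the 25 arrays was most like that of a member were ranked among 18921 genes by Pearson r, as a description, since arrays of a group share its mean. Urb1 (r = 0.928), Slc25a1 (0.917) and Sh2b2 (0.916) were most like Srebf1, and their r fell to 0.576, 0.518 and 0.544 after each group's mean was taken off. For Ppara they were Amacr (0.895), Prok1 (0.895) and Nadk2 (0.887), with 0.886, 0.912 and 0.852 after that step, so this likeness was mostly within groups. For Nr1h3 they were Oxsr1 (0.883), Irs3 (0.876) and Bckdhb (0.870), and Oxsr1 was also among the 3 for Klf15 (0.858), beside Orm3 (0.876) and 2700012I20Rik (0.854). For Cebpa they were Hsd17b14 (0.880), Sox6 (0.869) and Gm9895 (0.866), and for Rxra Apol6 (0.876), BC048403 (0.871) and Smim11 (0.843). For Pparg they were Fam217b (0.797), Zfp64 (0.792) and Asxl3 (0.791), for Nr1h2 Zfp553 (0.835), Jak2 (0.820) and Cdc123 (0.805), and for Usf1 Grk2 (0.810), Tmem170b (0.788) and Pi4kb (0.784). Cebpb had the least close neighbours, Sod2 (0.679), Nfkbiz (0.678) and 4930567H12Rik (0.665). With group means taken off, r for members other than Srebf1 and Ppara ranged from 0.476 (Gm9895 for Cebpa) to 0.844 (Grk2 for Usf1).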

How the data were processed

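The authors labelled RNA with Cy3, hybridised it to Agilent SurePrint mouse arrays and read the spots with Agilent Feature Extraction 10.10.1.1 (per the labels and methods). The deposited series table holds log2 median signals, quantile normalised by the authors after a filter on spot flags, with replicated probes reduced to their median. Against the log2 of the deposited spot intensity, each column correlated at 0.99982 or more. Column medians were 7.96. Quantile normalisation gives every array the same distribution, so differences are relative to the other probes.

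The fit used limma 3.58.1 in R 4.3.3 on all 40561 probes, with group and wash batch as terms, 18 residual degrees of freedom and Benjamini-Hochberg adjustment over all probes. It was tested on simulated data. Members and gene lists were chosen with earlier results of these data known. All members were named, and from each other list up to 4 rises and 4 falls, the largest called in total ChREBP KO. Some genes that this rule would name are not reported here. The 3 genes most like each member were ranked by r. Gene names came from RefSeq by accession or symbol, and probe positions (mm9) from the array files. P-values rest on the spread between mice, 1 array each, and the number of arrays limits the precision. The replicate numbers were not used as pairs in the fit, since same-numbered arrays gave no clear sign of pairing, though it was not excluded. Alternatives were other value scales, filters, batch terms, weights, probes, marker covariates and left-out arrays, and the fits without arrays high in epididymis, kidney or liver markers were added after seeing the data.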

Additional observations from a re-analysis of the deposited data

Results flagged for a closer look

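The effects of the 2 deletions differed for 3 members by the direct test with limma: Ppara by 1.58 (adjusted p = 0.017), Cebpa by 0.44 (adjusted p = 0.031) and Klf15 by 0.67 (adjusted p = 0.00771). For Ppara neither effect was called alone by the main probe (limma adjusted p = 0.077 and 0.38). The wild types of the lines differed in Ppara by -1.25, and their part in this result was not tested. For all 3 members, deletion and line cannot be told apart in the direct test. Among 40 combinations of member and group, 2 held an array far from the rest, and chance alone flags about 1 in 20 such groups. Srebf1 in total ChREBP WT replicate 6 was 16.68, against 16.86 for the next array, and the fall in total ChREBP KO was called without it. Usf1 in total ChREBP WT replicate 2 was 7.52, against 7.86 for the next array, and that array also had the highest epididymis marker mean.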

How the results depend on the processing

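Srebf1 and Klf15 were called in total ChREBP KO under every setting tried, and no member was called in the ChREBPβ line under any. Of 67 counts of called members outside the fits that left out 1 array, 62 stayed within 1.5 times. With the replicate number as a block the calls in the difference of the effects numbered 1 (Klf15) in place of 3, and Cebpa lost its call in total ChREBP KO (adjusted p = 0.0722). Same-numbered arrays correlated at -0.24 to 0.14 in the total ChREBP line and at -0.43 to 0.39 in the ChREBPβ line. Those of the wild types correlated at -0.13 to 0.27. The same-numbered array was the best match for 0 of 4, 1 of 5 and 0 of 6 pairs in that order. So few pairs gave no clear sign of pairing but cannot exclude it, and the block is a check only. With liver, kidney and epididymis marker levels as covariates 1 member (Srebf1) in place of 3 was called between the wild types. Without the 5 arrays high in epididymis markers the calls were 2 in total ChREBP KO (Srebf1 and Klf15) and 1 in the difference of the effects (Klf15). Without the 3 total ChREBP WT arrays high in liver markers they were 3 in total ChREBP KO (Srebf1, Nr1h3 and Klf15). These left-out sets were chosen after seeing the data, and the causes were not tested. Leaving out single arrays gave 4 to 6 calls in total ChREBP KO, 0 in the ChREBPβ line, 2 to 4 in the difference of the effects and 2 to 3 between the wild types. The fit with only the 2 compared groups could not be run for the difference of the effects.

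The sign changes were all of small differences that were not called in the fit reported. One of them, Pparg between the wild types, was called as the mean over its probes (0.34, adjusted p = 0.00212). For Pparg the difference of the effects was -0.02 from the rebuilt median signal and with no filter on dim probes, -0.04 with the processed signal, the replicate block or the marker covariates, -0.06 without arrays high in epididymis markers and -0.05 without those high in liver markers. In the ChREBPβ comparison Rxra was -0.01 with normexp or without arrays high in epididymis markers, 0 without wash batch, with scan day or with only the 2 groups, -0.03 with array weights, -0.12 as the mean over its probes and -0.04 with the covariates. There Nr1h2 was 0.01 with the processed signal and with array weights, Usf1 -0.02 as the mean over probes and -0.03 with the covariates, and Nr1h3 -0.03 with the covariates. Between the wild types Klf15 was -0.02 with the replicate block and -0.04 with the covariates or without arrays high in kidney markers, and Nr1h3 -0.08 and -0.03 in the latter 2 fits. Pparg was -0.11 and Usf1 -0.08 there with the covariates. Over the fits that left out 1 array, Nr1h2 ranged from -0.03 to 0.01, Cebpb from -0.09 to 0.04 and Rxra from -0.03 to 0.03 in the ChREBPβ comparison, Pparg from -0.04 to 0.05 in the difference of the effects and Klf15 from -0.03 to 0.07 between the wild types. The number of arrays limits all of these values.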
